A study of Mus musculus with 9 samples.

Results

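The miR-15, miR-16, miR-195 and miR-497 family comprises miRNAs cut from 3 hairpin clusters of the mouse genome. Members were taken by name from a list that holds no measured values: all 9 listed names were found among the 860 mature miRNAs measured, 5 guide strands (miR-15a-5p, miR-15b-5p, miR-16-5p, miR-195a-5p and miR-497a-5p) and 4 passenger arms (miR-15a-3p, miR-15b-3p, miR-16-1-3p and miR-195a-3p). The data are small RNA libraries of subcutaneous adipose tissue, the fat beneath the skin, from 9 individual mice. The groups were 3 WT littermates, 3 Hete_KO and 3 Homo_KO mice, the last 2 from an endothelial AGO1 knockout line. Mice of every group were 24 weeks old and ate a diet rich in sucrose and fat, begun at 8 weeks of age and given for 16 weeks, so the diet does not differ between groups and a lean group was not analysed here. The sources used here do not give the Cre driver, the strain or the allele design, and the bulk tissue holds adipocytes, vessels and other cells, so that fewer cells of a type and less RNA per cell cannot be told apart. Each value is a quantile-normalized log2(x + 1) level, in which every library holds nearly the same set of ranked values and the number of reads is unknown.

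Argonaute proteins such as AGO1 hold a mature miRNA and pair its seed, bases 2 to 8, with target mRNAs, which are then repressed. The miR-15 and miR-16 guides are known for restraining cell division through cyclin mRNAs, for repressing the survival gene Bcl2 and the angiogenic factor Vegfa, and for the loss of their DLEU2 locus in chronic lymphocytic leukaemia. miR-195 and miR-497 are known for driving cell cycle exit in heart muscle cells and for supporting Notch signalling in the endothelium of bone vessels.

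The guides share their seed, and their remaining bases set them apart. The mature sequences, from RefSeq on GRCm38.p6, are printed 5′ to 3′ with bases 2 to 8 in capitals, first the 5 guides and then 3 relatives outside the 3 clusters.
miR-16-5p: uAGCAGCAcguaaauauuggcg
miR-195a-5p: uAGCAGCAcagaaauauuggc
miR-15a-5p: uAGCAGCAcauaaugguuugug
miR-15b-5p: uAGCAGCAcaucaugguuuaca
miR-497a-5p: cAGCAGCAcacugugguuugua
miR-322-5p: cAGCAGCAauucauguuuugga
miR-195b: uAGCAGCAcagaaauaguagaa
miR-503-5p: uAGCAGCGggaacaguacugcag
Of 698 measured miRNAs with a mature sequence in RefSeq, 7 carry the bases 2 to 8 of miR-16-5p: the 5 guides, miR-322-5p and miR-195b. miR-503-5p shares bases 2 to 7 only and differs at base 8. Compared without gaps from the 5′ end, miR-16-5p and miR-195a-5p differ at 2 of 21 positions (G10A and U11G, the base of miR-16-5p first), and miR-15a-5p and miR-15b-5p differ at 4 of 22. How reads were counted is unknown here, so reads of such close sequences could have been split or shared between them.

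The passenger arms come from the opposite side of each hairpin and carry other seeds. They are printed because, unlike miR-16-5p, each names its locus.
miR-16-1-3p: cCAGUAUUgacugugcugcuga
miR-195a-3p: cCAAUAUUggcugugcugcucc
miR-16-2-3p: aCCAAUAUuauugugcugcuuu
miR-15a-3p: cAGGCCAUacugugcugccuca
miR-15b-3p: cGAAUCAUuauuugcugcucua
miR-16-1-3p and miR-195a-3p differ at 4 of 22 positions although they come from different chromosomes. miR-16-2-3p is no member of the listed family and is given as the locus-specific arm of the other miR-16 hairpin.

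The 3 loci lie on 3 chromosomes (GRCm38, the assembly that mm10 names). Mir15a (chr14:61632027-61632110) and Mir16-1 (chr14:61631880-61631972), 54 bases apart on the minus strand, lie in the long noncoding RNA gene Dleu2, Mir15a in an intron and Mir16-1 overlapping an exon of at least 1 annotated transcript. Mir15b (chr3:69009772-69009835) and Mir16-2 (chr3:69009902-69009996), 66 bases apart on the plus strand, lie in an intron of Smc4, which encodes a condensin subunit. Mir497 (chr11:70234717-70234800), the source of miR-497a, and Mir195a (chr11:70235042-70235135), 241 bases apart on the plus strand, lie in no gene of GENCODE vM21 other than miRNA genes. Mir16-1 and Mir16-2 give the identical miR-16-5p, so its level cannot be assigned to a locus.

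miR-16-5p was the most abundant member and ranked 42 of 860 by its mean over the 9 libraries (log2 14.25), ahead of miR-195a-5p (13.06, rank 53), miR-15b-5p (12.12, rank 77), miR-497a-5p (11.55, rank 89) and miR-15a-5p (11.46, rank 91). The passenger arms lay far lower, at 7.90 for miR-15b-3p, 7.23 for miR-195a-3p, 4.84 for miR-16-1-3p and 4.34 for miR-15a-3p. The ranges of miR-16-5p, miR-195a-5p and miR-15b-5p did not overlap one another. Those of miR-15b-5p, miR-497a-5p and miR-15a-5p all overlapped one another. So did those of miR-15b-3p and miR-195a-3p, and those of miR-16-1-3p and miR-15a-3p. All members had values above the lowest value of every library, and all 9 passed the filter on low values. On the back-transformed linear scale the family held between 0.438% and 0.668% of the summed level of a library, and miR-16-5p made up 50.1% of the family on average. In each of the 4 hairpins with both arms among the members, the 5p arm exceeded the 3p arm in every library, by 7.12 log2 units on average for miR-15a, 4.22 for miR-15b and 5.83 for miR-195a. miR-16-5p, which 2 hairpins supply, exceeded miR-16-1-3p by 9.40.

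Between genotypes, no member passed the test in any comparison. In Homo_KO against WT 0 of 9 members were called (limma, Benjamini-Hochberg adjusted p under 0.05 over all 489 miRNAs tested), where 3.27% of all miRNAs were. For Hete_KO against WT the count was 0 of 9, with a background of 0.409%, and for Homo_KO against Hete_KO 0 of 9, with a background of 0%. A moderated F-test over the 3 genotypes called 0 of 9 (background 1.23%). At an unadjusted limma p under 0.05 there were 2 of 9 members in Homo_KO against WT (miR-16-1-3p and miR-195a-5p), where 23.9% of all miRNAs tested were. There were 2 of 9 in Hete_KO against WT (miR-16-1-3p and miR-15b-5p, background 15.7%) and 1 of 9 in Homo_KO against Hete_KO (miR-195a-5p, background 8.38%). These shares are near their backgrounds. The median log2 difference of the members was 0.0022 in Homo_KO against WT, 0.19 below zero (-0.19) in Hete_KO against WT and 0.19 in Homo_KO against Hete_KO, beside 0.073, -0.017 and 0.040 over all miRNAs tested. Both knockouts were compared with the same 3 WT mice, so these comparisons are not independent.

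**Figure D1:**
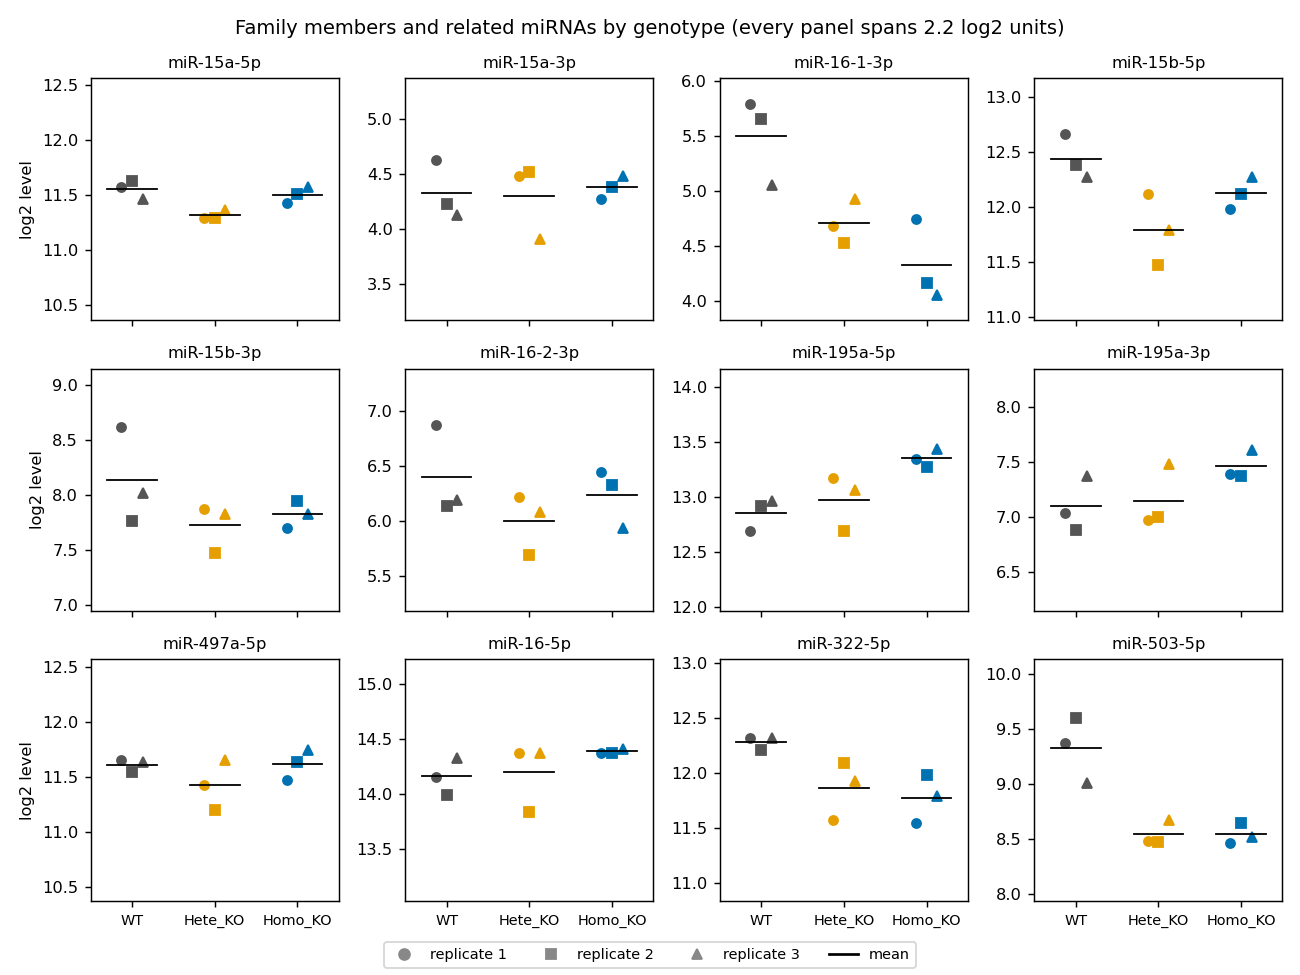
Log2 level (vertical axis) of the 9 members and of miR-16-2-3p, miR-322-5p and miR-503-5p in WT, Hete_KO and Homo_KO (horizontal axis), 1 symbol per mouse and a bar at the mean of 3. miR-16-1-3p lay between 5.05 and 5.79 in WT and between 4.05 and 4.74 in Homo_KO, while miR-195a-5p lay highest in Homo_KO.

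The guides of the chromosome 11 cluster differed from each other in their pattern. For miR-195a-5p the WT mice (replicates 1, 2 and 3, as in all such triplets) had log2 levels of 12.69, 12.92 and 12.96, the Hete_KO mice 13.17, 12.69 and 13.06 and the Homo_KO mice 13.35, 13.27 and 13.43. All 3 Homo_KO mice lay above every mouse of the other groups, which overlapped each other. Its fitted log2 difference was 0.49 ± 0.15 (SE, 95% interval 0.16 to 0.83) for Homo_KO against WT, 1.41-fold, with a limma adjusted p of 0.0962. For Homo_KO against Hete_KO it was 0.38 ± 0.15 (adjusted p = 0.593) and for Hete_KO against WT 0.12 ± 0.15 (adjusted p = 0.768). Leaving out each library in turn gave 0.41 to 0.55 for Homo_KO against WT, with adjusted p from 0.0482 (without Hete_KO replicate 2) to 0.293 (without WT replicate 1).

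Its passenger arm miR-195a-3p had values of 6.88 to 7.37 in WT, 6.97 to 7.48 in Hete_KO and 7.37 to 7.61 in Homo_KO, so that the lowest Homo_KO mouse equalled the highest WT mouse. The difference for Homo_KO against WT was 0.36 ± 0.20 (SE, limma adjusted p = 0.308). miR-497a-5p, cut from the neighbouring hairpin, averaged 11.61 ± 0.06 over the WT mice, 11.43 ± 0.23 over the Hete_KO mice and 11.61 ± 0.14 over the Homo_KO mice (SD, n = 3 each). The groups overlapped, and its interval for Homo_KO against WT ran from -0.33 to 0.33. As a description, miR-195a-5p exceeded miR-497a-5p by 1.24 ± 0.18 log2 units in WT mice, 1.55 ± 0.18 in Hete_KO mice and 1.74 ± 0.12 in Homo_KO mice (SD, n = 3 each). The other arm of that hairpin, miR-497a-3p, had means of 4.20 for WT, 4.02 for Hete_KO and 3.79 for Homo_KO, within overlapping ranges.

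Of the 3 members specific to the Dleu2 cluster, the passenger arm of Mir16-1 alone had groups that did not overlap in Homo_KO against WT. The WT mice had miR-16-1-3p at 5.79, 5.65 and 5.05, the Hete_KO mice 4.68, 4.52 and 4.92 and the Homo_KO mice 4.74, 4.16 and 4.05. Every WT mouse lay above every knockout mouse, and the knockout groups overlapped each other. The log2 difference from WT was -1.18 ± 0.29 in Homo_KO (SE, 95% interval -1.83 to -0.53, limma adjusted p = 0.0526), 0.442 times the WT level. In Hete_KO it was -0.79 ± 0.29 (adjusted p = 0.219). Leaving out each library in turn gave between -1.40 and -1.03 for Homo_KO, with adjusted p between 0.0504 and 0.202, and a fit without the variance trend gave an adjusted p of 0.0471.

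miR-15a-5p, the guide of the neighbouring hairpin, was at 11.57, 11.63 and 11.47 in WT, 11.29, 11.29 and 11.37 in Hete_KO and 11.43, 11.51 and 11.57 in Homo_KO. The Hete_KO mice lay below all others, and WT and Homo_KO overlapped. The log2 difference was -0.24 ± 0.11 for Hete_KO against WT (SE, limma adjusted p = 0.333) and -0.06 ± 0.11 for Homo_KO against WT (95% interval -0.31 to 0.20). Its passenger arm miR-15a-3p ranged from 3.91 to 4.63 over all libraries and had overlapping groups in every comparison. miR-16-1-3p minus miR-15a-3p, from neighbouring hairpins, was 1.17 ± 0.25 log2 units in WT mice, 0.40 ± 0.54 in Hete_KO mice and -0.06 ± 0.47 in Homo_KO mice (SD, n = 3 each).

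In the Smc4 cluster the guide miR-15b-5p had its lowest mean in Hete_KO. It was at 12.66, 12.38 and 12.27 in WT, 12.12, 11.47 and 11.79 in Hete_KO and 11.98, 12.12 and 12.27 in Homo_KO. WT and Hete_KO did not overlap, and the highest Homo_KO mouse equalled the lowest WT mouse. The log2 difference was -0.65 ± 0.18 for Hete_KO against WT (SE, 95% interval -1.06 to -0.23, limma adjusted p = 0.118) and -0.32 ± 0.18 for Homo_KO against WT (adjusted p = 0.342). The lowest mouse, Hete_KO replicate 2, also had the highest muscle miRNA mean and the most miRNAs at the library minimum (152). Leaving out each library in turn gave -0.81 (adjusted p = 0.0437, without Hete_KO replicate 1) to -0.48 (0.259, without Hete_KO replicate 2) for Hete_KO against WT, with adjusted p up to 0.414 (without WT replicate 1). It was -0.32 (0.771) without the 3 libraries with most muscle miRNA and -0.41 (0.461) with the depth covariate (the number of miRNAs at the minimum).

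miR-15b-3p averaged 8.14 ± 0.44 over the WT mice, 7.73 ± 0.22 over the Hete_KO mice and 7.83 ± 0.13 over the Homo_KO mice (SD, n = 3 each), with WT replicate 1 at 8.62 and all groups overlapping. Without that mouse its log2 difference from WT was -0.17 for Hete_KO and -0.068 for Homo_KO, against -0.41 and -0.31 with it. miR-16-2-3p, the arm specific to Mir16-2, ranged from 6.14 to 6.87, from 5.70 to 6.22 and from 5.94 to 6.44 in the same order, so these groups overlapped too. Its log2 difference for Homo_KO against WT was -0.16 ± 0.25 (SE, limma adjusted p = 0.708), beside -1.18 for the arm of Mir16-1. Within each library miR-16-1-3p minus miR-16-2-3p was -1.09, -0.49 and -1.14 for the WT mice, -1.54, -1.17 and -1.16 for the Hete_KO mice and -1.70, -2.17 and -1.88 for the Homo_KO mice. The Homo_KO mice lay below all others on this log2 difference.

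miR-16-5p, the guide that both miR-16 hairpins give, was at 14.16, 13.99 and 14.32 in WT, 14.37, 13.84 and 14.37 in Hete_KO and 14.37, 14.37 and 14.41 in Homo_KO. Homo_KO lay above WT without overlap, and 4 libraries held the identical level because of the shared ranks. The log2 difference for Homo_KO against WT was 0.23 ± 0.16 (SE, 95% interval -0.14 to 0.59, limma adjusted p = 0.427). The mean of miR-16-5p was thus highest in Homo_KO, the genotype with the lowest mean of miR-16-1-3p, the other arm of 1 of its hairpins.

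Counted together, 2 of 9 members (miR-16-5p and miR-195a-5p) lay higher without overlap in Homo_KO than in WT, where 18.4% of all miRNAs tested did, and 1 of 9 (miR-16-1-3p) lay lower, where 14.3% did. In Hete_KO against WT 0 of 9 lay higher and 3 of 9 (miR-15a-5p, miR-15b-5p and miR-16-1-3p) lower, with a background of 8.59% in each direction. Homo_KO lay above Hete_KO for 2 of 9 (miR-15a-5p and miR-195a-5p; background 9.0%) and below it for 0 of 9 (background 3.27%).

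**Figure D2:**
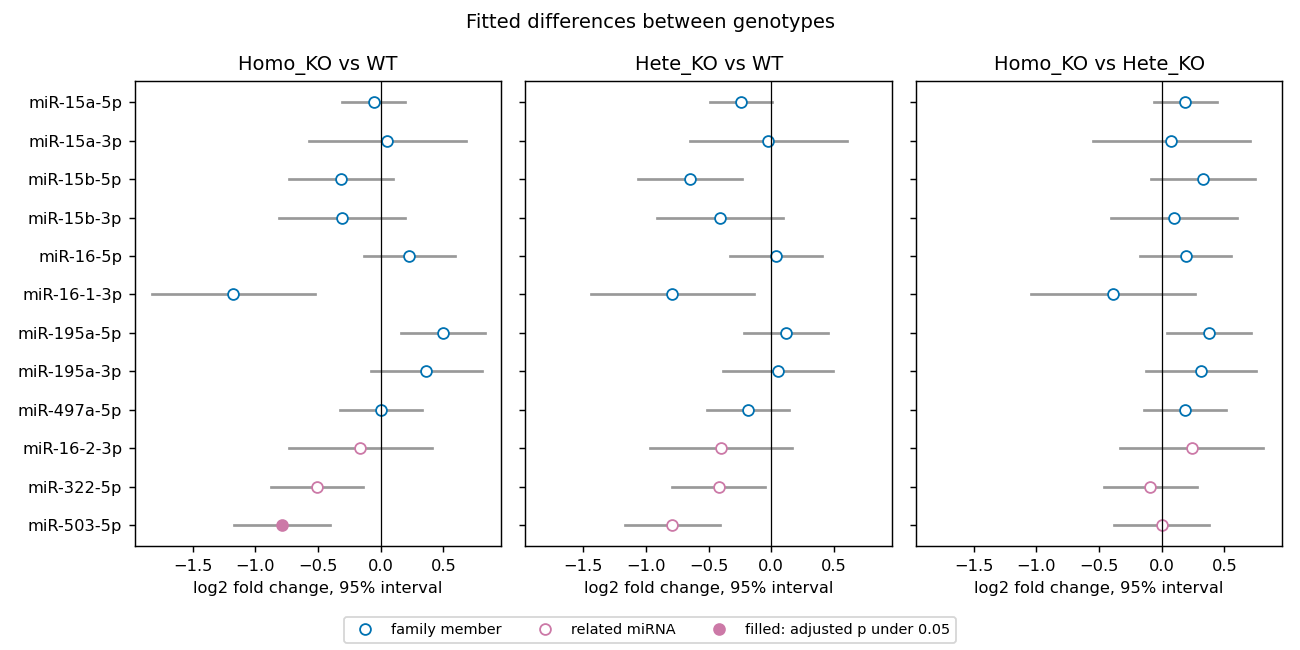
Fitted log2 fold change (horizontal axis, points) with its 95% interval (bars) for the 9 members and 3 related miRNAs (rows) in the 3 comparisons of genotypes (panels). All points of members are open because none passed the test, and of the related miRNAs only miR-503-5p in Homo_KO against WT is filled.

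The relatives outside the 3 clusters widen the picture of the shared seed. Of 8 relatives listed, 3 were measured and the other 5 were not analysed here. miR-322-5p, cut from the X chromosome beside miR-503, was at 12.32, 12.21 and 12.32 in WT, 11.57, 12.09 and 11.92 in Hete_KO and 11.55, 11.98 and 11.79 in Homo_KO. WT lay above both knockouts without overlap, with log2 differences of -0.51 ± 0.16 for Homo_KO and -0.42 ± 0.16 for Hete_KO (SE, limma adjusted p = 0.124 and 0.26). miR-503-5p, at 9.33 in WT and 8.54 in each knockout on average, was the relative that passed in Homo_KO against WT. It was lower there (limma adjusted p = 0.040), 1 of 2 relatives tested, where 3.27% of all miRNAs tested were called. With the depth covariate 0 miRNAs were called in that comparison. miR-503-5p was at 8.47 to 9.60 in the 3 libraries with most muscle miRNA and 8.46 to 9.01 in the other 6. miR-195b ranged from 1.59 to 4.52, was below the filter and was not tested.

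As a pool, the 7 miRNAs with the seed of miR-16-5p held 0.636% ± 0.032 of the summed level in WT mice, 0.597% ± 0.085 in Hete_KO mice and 0.687% ± 0.026 in Homo_KO mice (SD, n = 3 each). Within the pool miR-195a-5p had 15.5% to 19.2% in WT, 19.8% to 21.4% in Hete_KO and 21.7% to 23.5% in Homo_KO. miR-15b-5p had 11.1% to 15.2% in WT, 8.21% to 10.3% in Hete_KO and 9.10% to 10.4% in Homo_KO, and miR-322-5p 11.4% to 11.9%, 7.05% to 13.1% and 6.76% to 8.81%. The WT mice thus had the smallest shares of miR-195a-5p and the largest of miR-15b-5p, without overlap with either knockout. These shares rest on quantile-normalized values and describe the deposited scale.

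**Figure D3:**
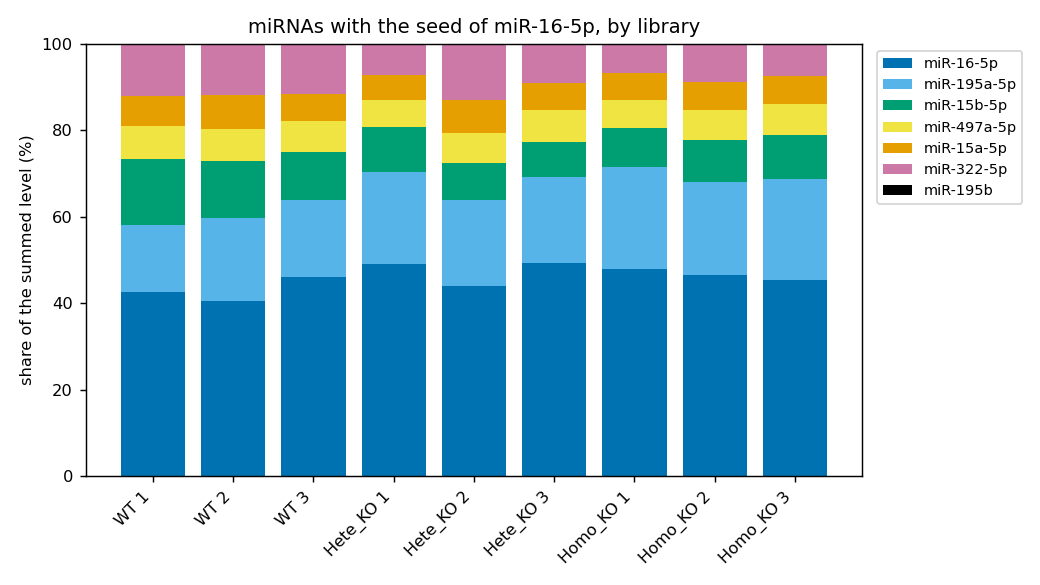
Share of the summed back-transformed level in percent (vertical axis) held by each of the 7 miRNAs with the seed of miR-16-5p, stacked for each of the 9 libraries (horizontal axis). miR-16-5p is the largest part in every library (40.5% to 49.3%), miR-195a-5p takes a larger part in the knockout libraries than in WT, and miR-195b is too small to be seen.

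Members of a cluster are cut from the same transcript, so it was asked whether they vary together from mouse to mouse. Of 36 pairs of members, 0 passed (Pearson r over 9 libraries, exact permutation test, two-sided, Benjamini-Hochberg over the 36). On Spearman's rho, tested in the same way, 1 of 36 passed, that of miR-16-5p and miR-195a-5p, given below. The 7 pairs within a cluster had a median r of 0.38 and a range from -0.11 to 0.80, the 5 pairs of miR-16-5p with the products of its clusters a median of 0.011 and a range from -0.39 to 0.22, and the 24 pairs of different clusters a median of 0.17 and a range from -0.67 to 0.79. miR-15b-5p and miR-15b-3p, arms of 1 hairpin, had r = 0.80 and rho = 0.60 (exact permutation p = 0.0142 and 0.0905, adjusted p = 0.17 and 0.466), and r = 0.23 without the 2 libraries farthest from the median. After subtraction of the genotype means r was 0.72 for this pair. Over the 6 libraries outside the 3 with most muscle miRNA it was 0.52. The r of this pair thus differed with the libraries kept. miR-15a-5p and miR-15b-5p, from different chromosomes, had r = 0.78 and rho = 0.83 (exact permutation p = 0.0105 and 0.00794, adjusted p = 0.17 and 0.143) and r = 0.83 without the 2 farthest libraries. After subtraction of the genotype means this r was 0.36, and the close sequences of these guides were described above.

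miR-16-5p and miR-195a-5p, the guides nearest to each other in sequence, had r = 0.79 and rho = 0.93 (exact permutation p = 0.00999 and 0.000529, adjusted p = 0.17 and 0.019) and r = 0.89 without the 2 farthest libraries. Their 3 lowest libraries were the same for both and are those highest in muscle miRNAs. Over the other 6 libraries r was 0.84 and rho 0.85 (exact permutation p = 0.0333 and 0.0667, adjusted p = 0.54 and 0.48 over 36 pairs). In those 6 libraries miR-16-5p spanned only 14.32 to 14.41. It was tied at 14.37 in all but WT replicate 3 and Homo_KO replicate 3, so these values rest on those 2 libraries.

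**Figure D4:**
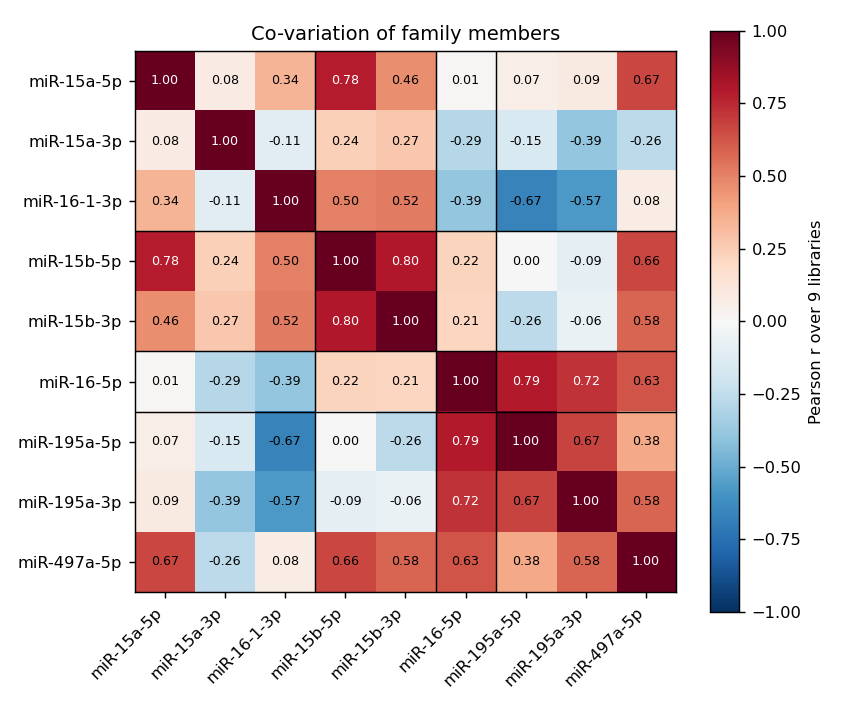
Pearson r over 9 libraries for each pair of members (rows and columns), ordered by cluster with lines between clusters, red for positive and blue for negative r. The pair of miR-15b arms has 0.80, and no pair passed on Pearson r after adjustment.

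Among all tested miRNAs outside the family, the most similar profiles over the 9 libraries were those of miR-20a-5p for miR-15a-5p (r = 0.89) and for miR-15b-5p (r = 0.91), miR-10b-5p for miR-16-5p (r = 0.97), miR-142a-5p for miR-195a-5p (r = 0.91) and miR-467e-3p for miR-497a-5p (r = 0.89). The next were let-7f-1-3p and miR-181c-5p for miR-15a-5p, miR-301a-5p and miR-362-5p for miR-15b-5p, miR-574-3p and miR-99b-5p for miR-16-5p, miR-152-3p and miR-467a-5p for miR-195a-5p, and miR-1964-3p and miR-467f for miR-497a-5p. Their r lay between 0.79 and 0.95. Spearman's rho of all these profiles with their guides ranged more widely, from 0.55 (miR-1964-3p) to 0.94 (miR-362-5p), and was 0.67 for miR-467e-3p. They were picked as the highest of many profiles that share libraries and ranks, and serve as a description.

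Libraries differed in their content of other cells' miRNAs, and some members moved with it. The mean of 4 skeletal muscle miRNAs (miR-206-3p, miR-133b-3p, miR-1a-3p, miR-133a-3p) was 13.40, 13.73 and 7.56 in WT, 10.04, 14.35 and 8.76 in Hete_KO and 11.68, 6.17 and 7.40 in Homo_KO. The 3 libraries highest in it, WT replicates 1 and 2 and Hete_KO replicate 2, were the 3 lowest for miR-16-5p (13.84 to 14.16 against 14.32 to 14.41 in the other 6) and for miR-195a-5p (12.69 to 12.92 against 12.96 to 13.43). Without them the log2 difference of Homo_KO from the remaining WT mouse was 0.060 for miR-16-5p, 0.39 for miR-195a-5p and -0.73 for miR-16-1-3p (limma adjusted p = 0.551, 0.183 and 0.436), the lone WT mouse being assumed to vary like the other groups. For miR-195a-3p and miR-15b-5p it was 0.086 and -0.15. The difference of Hete_KO from WT without those libraries was -0.25 for miR-16-1-3p (adjusted p = 0.892) against -0.79 with them, and -0.14 for miR-15a-5p (adjusted p = 0.841). For Homo_KO against Hete_KO that of miR-195a-5p was 0.23 (adjusted p = 0.462). With the muscle mean as a covariate in all 9 libraries the Homo_KO against WT values of miR-16-5p, miR-195a-5p and miR-16-1-3p were 0.074, 0.40 and -0.98 (adjusted p = 0.84, 0.248 and 0.182).

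**Figure D5:**
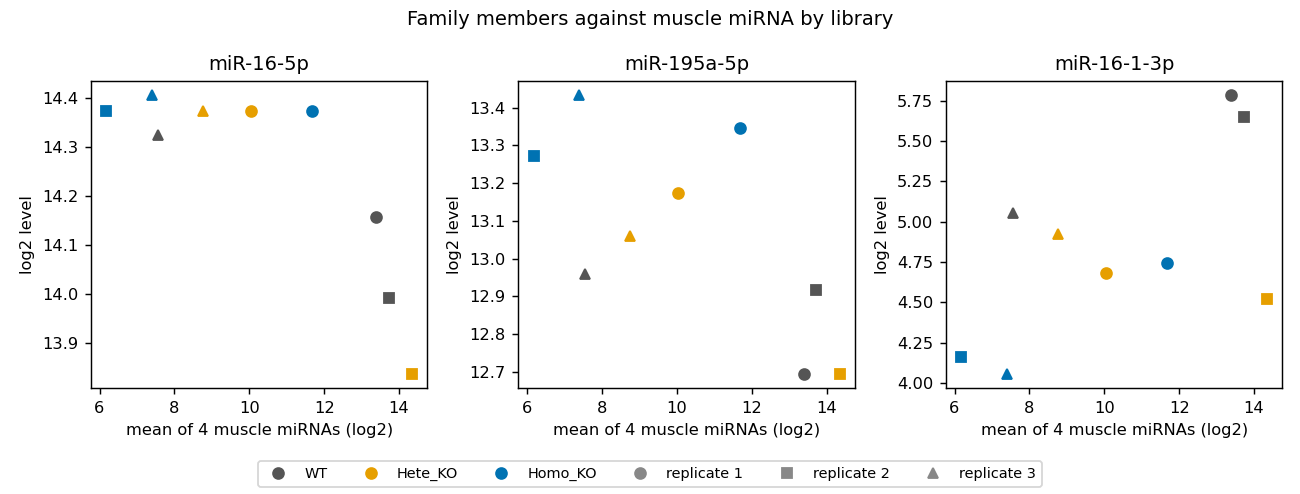
Log2 level (vertical axes) of miR-16-5p, miR-195a-5p and miR-16-1-3p against the mean log2 level of 4 muscle miRNAs (horizontal axis), 1 point per library, coloured by genotype and shaped by replicate. The 3 libraries with a muscle mean above 13 have the lowest miR-16-5p and the lowest miR-195a-5p.

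Some other marker sums also differed between the groups, and the part of all of them in the members' values was not tested. The summed log2 level of 6 leukocyte miRNAs was 14.40 to 14.49 in WT, 14.14 to 14.63 in Hete_KO and 14.68 to 15.02 in Homo_KO, the group in which miR-195a-5p was highest, and 1 of the 6 was called, higher, in Homo_KO against WT. That of 4 erythroid miRNAs was 13.54 to 14.21 in WT, 12.20 to 13.52 in Hete_KO and 13.08 to 13.55 in Homo_KO, with 0 of 4 called. The endothelial pair of miR-126a arms spanned 17.81 to 18.20 for WT, 17.10 to 17.74 for Hete_KO and 17.64 to 17.77 for Homo_KO (0 of 2 called), and 7 epithelial miRNAs at 11.79 to 12.23, 12.90 to 12.97 and 12.80 to 12.96, with 1 of 7 called, higher, in Homo_KO. The epithelial and the endothelial sum each set WT apart from both knockouts without overlap, as did miR-16-1-3p. WT lay lower in the epithelial sum and higher in the endothelial sum and in miR-16-1-3p. Liver miR-122-5p was at 7.48 (replicate 1) to 14.99 in WT, 13.43 to 13.84 in Hete_KO and 11.71 to 14.52 in Homo_KO. The sum of 4 smooth muscle and stromal miRNAs was 19.56 to 20.07 in WT, 19.52 to 20.08 in Hete_KO and 20.07 in Homo_KO. Groups overlapped in both. Hete_KO, the group with the lowest means of miR-15a-5p and miR-15b-5p, had the lowest means of several sums. These were the leukocyte, the erythroid, the endothelial, and the smooth muscle and stromal sum. Read depth is unknown. Whether the count of miRNAs with the minimum value of their library, called the depth covariate here, follows depth or composition was not tested. That count was 63 to 104 in WT, 101 to 152 in Hete_KO and 102 to 141 in Homo_KO. With it as a covariate the log2 difference of Homo_KO from WT was 0.53 for miR-16-5p, 0.69 for miR-195a-5p and -1.17 for miR-16-1-3p, each with a limma adjusted p of 0.194, and -0.078 for miR-15b-5p (adjusted p = 0.873).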

How the data were processed

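Small RNA libraries of 9 mice were prepared from Trizol extracts with Illumina's TruSeq small RNA kit, per the labels' protocols, and the build was mm10, per the submitters' processing notes. The authors deposited log2 values, 1 per mature miRNA, that were quantile-normalized as log2(x + 1), as read from the deposited values themselves, though the files are named for FPKM. The sources used here do not give the aligner or counter, and read depth is unknown, so no counting interval is given. The log2 values were used without a further pseudocount. Kept for testing were 489 of 860 miRNAs, those above a library's minimum in 3 or more libraries with a mean of 3.459 (log2(10 + 1)) or higher. Genotype differences were fitted by limma (version 3.58.1, R version 4.3.3; variance trend, 9 libraries, no covariate), with Benjamini-Hochberg adjustment over all 489. The limma fit alone was tested on simulated data with independent normal noise, which lacks the ties and quantile normalization of these values. Correlations had exact permutation tests. Named were all members, listed seed relatives, other arms of the clusters, and the 3 tested miRNAs most correlated with each guide. Sequences are from RefSeq (GRCm38.p6), genes from GENCODE vM21. Members were defined by name, and the choice of this family and of the lists was made with earlier results of these data known.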

Additional observations from a re-analysis of the deposited data

How the results depend on the processing

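Alternatives were another pseudocount, 2 other filters, median centring, no variance trend, only the groups compared, the replicate block, muscle and depth covariates, and leaving out libraries. Over 507 refits of 27 member differences, 484 kept direction and side of the threshold, 20 changed sign and 3 passed the threshold. The stricter filter left out miR-16-1-3p and miR-15a-3p. The members called in Homo_KO against WT numbered 1 without the variance trend (miR-16-1-3p, adjusted p = 0.0471, limma) and 0 to 1 when 1 library was left out (1 without Hete_KO replicate 2), and in Hete_KO against WT 0 to 1 (1 without Hete_KO replicate 1). Causes of these changes were not tested.

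The count of all miRNAs called in Homo_KO against WT was 16. It was 9 with no filter, 25 with the stricter filter, 3 with the muscle covariate, 0 with the depth covariate, 8 without the 3 libraries with most muscle miRNA, and 2 to 25 when 1 library was left out, moving over 1.5 times for each library other than WT replicate 3 and Hete_KO replicate 1. In Hete_KO against WT it was 2. It was 10 with the stricter filter, 1 without the variance trend or with only the groups compared, 0 with the depth covariate, 10 without those 3 libraries, and 1 to 24 when 1 was left out, moving for each other than WT replicate 2 and Homo_KO replicates 1 and 2. In Homo_KO against Hete_KO it was 0, and 4 without the 3 libraries.

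With the replicate number as a block, the counts were 25 in Homo_KO against WT and 15 in Hete_KO against WT, with 0 members called in each. The labels do not say that a number pairs mice. Same-numbered libraries had correlations of their deviations from -0.28 to 0.55, and libraries with different numbers from -0.70 to 0.54. Whether libraries of the same number share more than the number was not tested.

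Sign changes had small values. In Homo_KO against WT these were miR-497a-5p (-0.11 with the muscle covariate, -0.017 without the 3 libraries, -0.062 to 0.075 with 1 left out), miR-15a-3p (-0.024 with the depth covariate, -0.049 to 0.20 with 1 left out) and miR-15a-5p (0.033 without the 3). In Hete_KO against WT these were miR-15a-3p (0.070 without the 3, -0.13 to 0.17 with 1 left out), miR-195a-3p (-0.15 and -0.11 to 0.19) and miR-16-5p (-0.052 to 0.22 with 1 left out). In Homo_KO against Hete_KO these were miR-15b-3p (-0.025 without the 3, -0.025 to 0.17 with 1 left out) and miR-15a-3p (-0.12 to 0.19). The log2 family sum differed by 0.17 between Homo_KO and WT, and the mean of the members' log2 values by -0.080. Of the 36 correlations, 1 passed with Spearman's rho, which was planned beside Pearson r. On Pearson r 0 to 1 passed when 1 library was left out (1 without WT replicate 1, WT replicate 2 or Hete_KO replicate 2). Leaving out libraries for the correlations was chosen after seeing the data.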
